A study of Rattus norvegicus with 90 samples.

Results

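The 5 genes described here encode trypsinogens and trypsin-like proteases of the rat pancreas, and they were chosen by the symbols Prss1, Prss2, Prss3, Prss3b and 1810009J06Rikl in the annotation of the array's probes. Each symbol had 1 probe, so the set held 5 of 22523 probes and 5 of 13337 named genes. The cells were AR42J, a line from a tumour of the acinar cells of the rat pancreas, which respond to the stomach hormone gastrin through a receptor of the cholecystokinin family. Samples were cells without stimulus (35 arrays), with gastrin (34), with cycloheximide, an inhibitor of protein synthesis (9), or with gastrin and cycloheximide (10), on Illumina bead arrays. Untreated cells and gastrin were followed in batches 2 and 3 from 0 or 0.25 h to 14 h, and batch 1 was measured at 14 h. Batches 4 and 5 held all 4 stimuli at 1, 2, 4 and 6 h, and batch 6 held them at 4 h. The labels give no dose. Sample titles mark the batches BR1 to BR6 without spelling out BR, and nothing else in the labels tells whether batches came from separate cultures. The p-values therefore reflect only how much these samples varied, which may be technical. All groups were of this 1 tumour line, in which cell number and RNA per cell cannot be told apart.

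Trypsinogens are inactive precursors that acinar cells store in zymogen granules and release into the gut. There enteropeptidase cuts off a short activation peptide, and the trypsin that forms activates further trypsinogen and the other digestive zymogens. Trypsin that becomes active inside the acinar cell is linked to pancreatitis. In the rat, Prss1 and Prss2 encode anionic trypsinogens, and Prss3b, which also bears the synonym Try3, a cationic one. The gene 1810009J06Rikl has the synonyms P23 and Try4 in RefSeq, and P23 is known in rat pancreas as a trypsinogen that rises with the cholecystokinin analogue caerulein. Prss3 is a further gene of the family. The rat trypsinogen genes lie inside the T cell receptor beta locus.

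In the rat gene table of assembly GRCr8 all 5 genes lie on chromosome 4. From Prss3bl1 to Prss1 the table lists 10 protein-coding genes, of which 7 had a probe. Prss3bl1 is the direct neighbour of 1810009J06Rikl, and 1 pseudogene separates that gene from Prss3b. Between Prss3b and Prss3 lie 14 variable segments of the receptor locus, and Prss2 and Prss1 follow beyond Prss3. Trypsinogen transcripts are near-identical in long stretches, probe sequences were not used here, and whether a probe also binds the transcript of another member was not tested.

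RefSeq's promoter table for GRCr8 matched 3 of the 5 members, and each entry runs from 250 bases before to 50 bases after the gene's start. All 3 are shown, and Prss3 and 1810009J06Rikl had no entry. Of the 3, Prss1 and Prss3b rose with gastrin, while Prss2, whose probe was dim, did not pass the test in any comparison. Any link of the sequences to these results was not tested. Capitals mark TATAAA on the printed strand and, on either strand, CACCTG (an E-box of the kind the acinar factor PTF1 binds), TGATGCAA (an amino acid response element) and TTTCCCA (a box of the kind RBPJ proteins bind).

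Prss1 promoter, chr4:71330999-71331298, plus strand: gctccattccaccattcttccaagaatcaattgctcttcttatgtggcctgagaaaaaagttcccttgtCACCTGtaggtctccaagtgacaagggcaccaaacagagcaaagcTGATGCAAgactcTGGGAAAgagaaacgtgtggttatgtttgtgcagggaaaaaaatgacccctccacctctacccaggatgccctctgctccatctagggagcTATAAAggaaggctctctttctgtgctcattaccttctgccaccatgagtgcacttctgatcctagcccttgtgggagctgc

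Prss2 promoter, chr4:71244714-71245013, plus strand: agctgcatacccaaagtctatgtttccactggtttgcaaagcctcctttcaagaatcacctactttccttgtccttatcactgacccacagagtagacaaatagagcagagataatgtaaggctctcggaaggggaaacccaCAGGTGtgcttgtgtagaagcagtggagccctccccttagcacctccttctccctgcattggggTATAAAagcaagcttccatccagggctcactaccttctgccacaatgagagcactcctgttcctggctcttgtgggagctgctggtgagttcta

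Prss3b promoter, chr4:70842143-70842442, minus strand: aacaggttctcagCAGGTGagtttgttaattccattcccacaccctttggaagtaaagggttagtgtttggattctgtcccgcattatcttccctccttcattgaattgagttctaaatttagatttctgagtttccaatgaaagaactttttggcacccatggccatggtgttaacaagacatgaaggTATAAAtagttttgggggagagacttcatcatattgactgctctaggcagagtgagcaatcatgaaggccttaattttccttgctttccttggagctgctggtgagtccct

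All 3 windows held TATAAA, which 8.8% of 33469 rat promoter windows of the same length held on the sense strand. Relative to the start, its first base lay at -32 in Prss1, -44 in Prss2 and -61 in Prss3b. All 3 also held CACCTG, as did 18.8% of all windows, with its first base at -181, -108 and -237. TGATGCAA was present in Prss1 alone of the 3 and in 0.795% of all windows, and TTTCCCA was likewise present in Prss1 alone and in 8.23% of all. No match was found in these 3 windows for TGANTCA (the AP-1 site), TGACGTCA (the cAMP response element) or GCGGGGGCG (the EGR site), searched on both strands. The 3 were held by 7.33%, 1.83% and 2.73% of all windows. The searched motifs overlapped no other in these windows.

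Values are the deposited log2 levels, and a level on this scale is compared only within a probe. The arrays had nearly 1 distribution, with medians between 6.40 and 6.41. The probes of Prss1, Prss3, Prss3b and 1810009J06Rikl lay above the median of their array on 90 of 90 arrays, with ranges of 8.77 to 14.20, 10.08 to 14.70, 6.41 to 11.67 and 9.98 to 14.48. The Prss2 probe lay above it on 6 of 90 arrays and between 5.83 and 7.10, so it was dim throughout. Untreated Prss3b was also low, from 6.54 to 6.98 in batches 1 to 3 and from 6.70 to 7.31 in batches 4 and 5. Of 9 measured acinar markers 8 were above the array median on every array, against 0 of 6 fibroblast or stromal and 0 of 3 immune or endothelial markers. Of the other lists 4 of 10 neuroendocrine and 1 of 3 ductal markers were so. With gastrin at 4 to 8 h 10.3% of all probes passed limma's adjusted threshold and 4.98% passed as higher. Of the acinar markers Pnlip (0.72 ± 0.07), Ptf1a (0.24 ± 0.05) and Ctrb1 (0.13 ± 0.04) were higher and Rbpjl (-0.24 ± 0.07) was lower. In this window 2 of 10 neuroendocrine markers rose, Syp by 0.24 ± 0.06 and Chgb by 0.20 ± 0.05, and 1 of 3 ductal markers fell. This was the keratin gene Krt19, at -0.33 ± 0.04, and it was also lower at 10 and 14 h (-0.28 ± 0.06) and with cycloheximide at 4 and 6 h (-0.52 ± 0.11), all by limma's adjusted threshold. The part of these markers in the members' changes was not tested.

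Levels of the members differed between batches before any stimulus. In untreated cells Prss1 lay between 10.94 and 12.42 in the 24 samples of batches 1 to 3, between 9.59 and 10.47 in the 8 of batches 4 and 5, and at 12.46 in the sample of batch 6. Prss3 ran from 11.53 to 13.27, from 10.76 to 11.46 and at 13.65 in the same sets, so for both probes batches 4 and 5 lay entirely below batches 1 to 3. The untreated batch 6 sample was also the highest for Prss3b, at 7.75, and for Prss2, at 6.57. Each gastrin sample was therefore set against the untreated sample of its own batch and time. The n of a gastrin effect counts such pairs, and a batch adds a pair at each of its times. The fits treat the times of a batch as independent, so the SE and p-values rest on fewer batches than n. How common a gap between groups, or the same sign in all pairs, is among all probes was not determined for any comparison.

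Within 15 minutes of gastrin 0 of 5 members passed the test, as did 0% of all probes. With limma 1038 of 22523 probes had an unadjusted p under 0.05 at this time, no more than chance alone would give. No member was among them. Between 0.5 and 2 h 1 member rose, 1810009J06Rikl, where 9.21% of all probes passed and 4.68% passed as higher. At 0.5 h it stood at 11.78 and 11.77 with gastrin against 10.99 and 10.60 without. At 2 h the 4 gastrin samples were at 13.23, 12.79, 13.74 and 12.62 and their untreated partners at 10.93, 11.06, 12.06 and 11.03. The gene was higher with gastrin in 12 of 12 pairs. The groups overlapped through the untreated batch 4 sample at 2 h, and in batches 2 and 3 the 8 gastrin samples, from 11.77 to 13.23, all lay above the 8 untreated ones, from 10.60 to 11.28. The rise was 1.33 ± 0.09 (SE, n = 12), or 2.52-fold (limma adjusted p = 6.98e-11).

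Prss1, Prss3, Prss3b and Prss2 did not pass in this window. Their fitted differences were 0.04 ± 0.10, 0.09 ± 0.08, 0.05 ± 0.16 and -0.01 ± 0.05, and each was higher in 6 or 7 of 12 pairs. For the first 3 genes the batches went apart. At 1 and 2 h Prss1 was higher with gastrin by 0.13 to 0.96 in the 4 pairs of batches 4 and 5. In batches 2 and 3 its differences were -0.38 and -0.49 at 1 h and 0.50 and -0.29 at 2 h. The effect at 1 and 2 h was larger in batches 4 and 5 than in batches 2 and 3 by 0.68 ± 0.13 for Prss1, by 0.59 ± 0.13 for Prss3 and by 0.29 ± 0.08 for Prss3b, with limma adjusted p of 0.000549, 0.00177 and 0.0122. These are 3 of 5 members in a comparison, chosen after the values were seen, in which 21.5% of all probes passed and 11.7% passed in this direction. Prss1 passed without any 1 batch, Prss3 did not without batch 3 (0.46) or batch 4 (0.33), and Prss3b did not without batch 2 (0.26), 3 (0.31) or 4 (0.23). For 1810009J06Rikl the same difference was 0.01 ± 0.13 and did not pass. The 1 h arrays of batches 4 and 5 came in 2 series by title, which were averaged. In untreated cells of batch 4 these series differed, with Prss1 at 10.36 and 8.83 and Prss3 at 11.28 and 10.23.

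Arrays were also scored along 1 axis of expression, and most high scores were at 1 to 2 h. The axis was the difference of the untreated 2 h samples of batches 4 and 5 from those at 1 and 6 h, without the 5 members. The scores of 1.06 and 0.91 of these 2 h samples were therefore high by construction. The gastrin samples of batches 2 and 3 scored from 0.25 to 0.494 at 1, 1.5 and 2 h, and 16 samples in all scored above 0.25. Of these 4 were later, cycloheximide at 6 h in batch 4 (0.646), gastrin with cycloheximide in the same batch and time (0.298) and gastrin in batch 2 at 10 h (0.361) and 12 h (0.434). At 2 h the untreated batch 4 sample had the 1810009J06Rikl level of 12.06, against 10.34 at 1 h and 11.31 at 4 h. The 4 h array was of another title series than the 2 h array, and the 1 h level was the mean of both series. Leaving out the samples of high score left no early pair at 1.5 h. The pairs left were of batches 2 and 3 at 0.5 h, 4 and 5 at 1 h and 3 at 2 h. Over them the early effect on 1810009J06Rikl was 1.36, against 1.33 over all pairs, and the times averaged differ. Without the samples of high score the effects at 10 and 14 h were 2.09 for 1810009J06Rikl, 1.59 for Prss3b, 1.11 for Prss1 and 0.97 for Prss3. Those of cycloheximide at 4 and 6 h were -0.91 for Prss1 and -0.97 for Prss3. All of these late and cycloheximide effects passed limma's threshold.

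**Figure D1:**
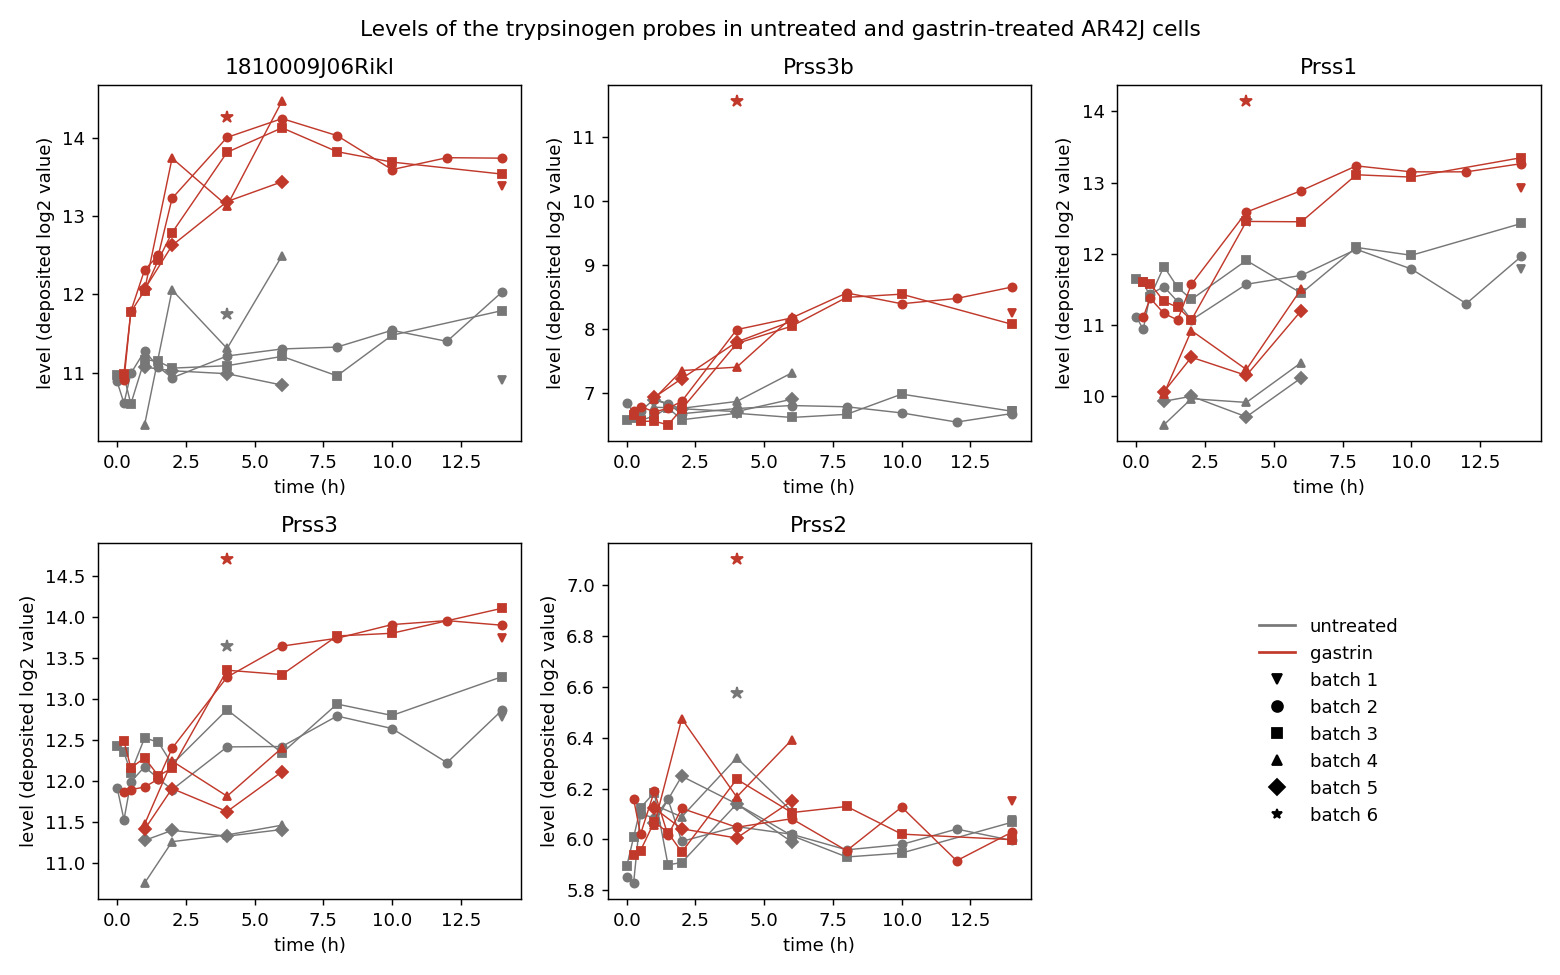
Deposited log2 levels of the 5 probes (vertical axis) against time in hours, in untreated (grey) and gastrin-treated (red) samples, with 1 symbol per batch and lines joining the samples of a batch. The 1810009J06Rikl lines part by 0.5 h, those of Prss3b, Prss1 and Prss3 later, and batch 6 (star) reaches 11.56 for Prss3b with gastrin at 4 h.

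Between 4 and 8 h 4 of 5 members rose and 0 fell, while 10.3% of all probes passed and 4.98% passed as higher. Their median change was 1.00, against -0.00367 for the median of all probes. Untreated samples had 1810009J06Rikl levels of 10.84 at the lowest, 11.21 at the median and 12.49 at the highest, and gastrin samples of 13.13, 14.00 and 14.47. The 11 gastrin samples lay above all 11 untreated ones. The rise of 2.60 ± 0.10 (SE, n = 11), or 6.06-fold (limma adjusted p = 1.67e-17), ranked 1 among all 22523 probes.

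Prss3b, the cationic trypsinogen, had untreated levels of 6.61, 6.78 and 7.75 (lowest, median and highest) and gastrin levels of 7.40, 8.12 and 11.56. The groups overlapped through the untreated sample of batch 6, and within batches 2 and 3 and within batches 4 and 5 they did not overlap. Prss3b rose by 1.52 ± 0.17 (SE, n = 11), or 2.88-fold (limma adjusted p = 8.79e-08), and ranked 9. Batch 6 lay apart here. Its gastrin sample at 4 h was at 11.56, where the other 4 batches with that time were at 7.40 to 7.99, and its difference was 3.80 against 0.54 to 1.23 in them. Without batch 6 the rise was 1.34, with a limma adjusted p of 1.36e-14.

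Prss1 and Prss3, both among the brighter probes in these cells, also rose. In batches 2 and 3 untreated Prss1 levels were 11.44, 11.80 and 12.09 at the lowest, median and highest, and gastrin levels 12.45, 12.735 and 13.23, without overlap. In batches 4 and 5 they were 9.71, 10.08 and 10.47 against 10.29, 10.79 and 11.51, and these ranges overlapped. Prss1 rose by 0.9999 ± 0.101 (SE, n = 11), or 2.00-fold (limma adjusted p = 2.54e-08). Prss3 stood at 12.34 to 12.94 untreated and at 13.265 to 13.77 with gastrin in batches 2 and 3. In batches 4 and 5 it stood at 11.33 to 11.46 and at 11.63 to 12.40, and neither set overlapped. Its rise was 0.82 ± 0.09, or 1.77-fold (limma adjusted p = 3.97e-08). All 4 risers were higher in 11 of 11 pairs. Without batch as a block, which leaves the batch levels in the error, Prss1 and Prss3 did not pass (limma adjusted p of 0.366 and 0.289).

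Prss2 differed by 0.10 ± 0.06, was higher in 7 of 11 pairs and did not pass (limma adjusted p of 0.327). Its samples ran from 5.93 to 6.57 untreated and from 5.96 to 7.10 with gastrin, and the highest, of batch 6, was the sample that also had the highest Prss3b level. The dimness of the probe limits which change could be detected.

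The change from the early to the middle window was tested directly, and 4 of 5 members passed as higher, where 5.65% of all probes passed and 2.68% as higher. The effect grew by 1.48 ± 0.23 for Prss3b, 1.27 ± 0.14 for 1810009J06Rikl, 0.96 ± 0.14 for Prss1 and 0.74 ± 0.12 for Prss3, and the highest limma adjusted p was 0.000135. Prss3b ranked 3 among all probes and 1810009J06Rikl 6. Prss1, Prss3 and Prss3b did not all keep these calls when a batch was left out. Without batch 2 none of the 3 passed, and without batch 3 Prss3 and Prss3b did not.

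**Figure D2:**
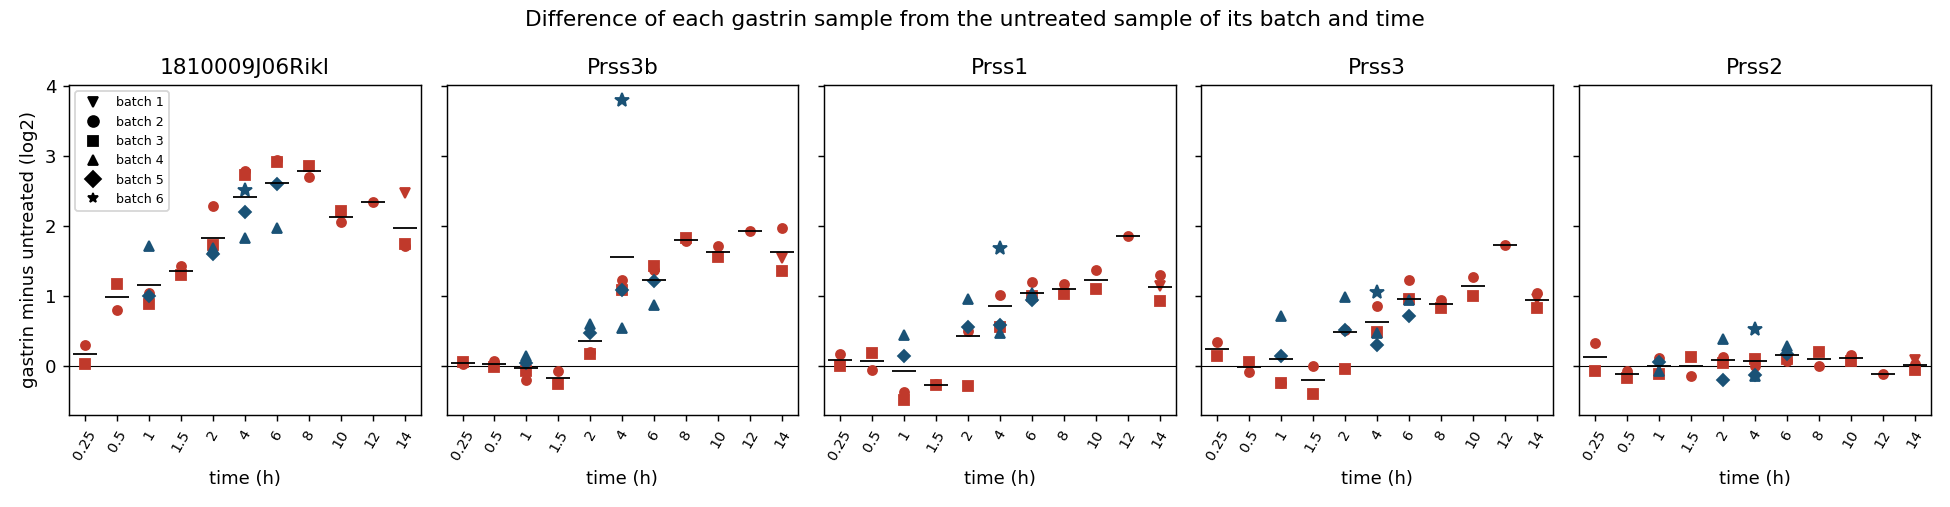
Difference in log2 level between each gastrin sample and the untreated sample of its batch and time (vertical axis), by time in hours with equal steps, in batches 1 to 3 (red) and 4 to 6 (blue), with a bar at the mean of each time. The differences of 1810009J06Rikl are above 0 in all 31 pairs, and the batch 6 difference of Prss3b is 3.80.

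At 10 and 14 h the same 4 members were higher and 0 lower, and 7.52% of all probes passed, 3.78% as higher. For 1810009J06Rikl the untreated samples were at 11.54 and 11.48 at 10 h and at 10.91, 12.03 and 11.79 at 14 h, and the gastrin samples at 13.59 and 13.69 and at 13.38, 13.74 and 13.535. For Prss3b they were at 6.68 and 6.98 and at 6.71, 6.67 and 6.71, against 8.39 and 8.54 and then 8.25, 8.65 and 8.07. Neither gene's groups overlapped. Untreated Prss1 lay at 11.785 and 11.98 and at 11.78, 11.96 and 12.42, and with gastrin at 13.15 and 13.08 and at 12.92, 13.265 and 13.35. Prss3 lay at 12.64 and 12.80 and at 12.78, 12.86 and 13.27 untreated, and at 13.905 and 13.80 and at 13.74, 13.90 and 14.10 with gastrin. These groups did not overlap either. For no window was it determined how common such a gap is among all probes.

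The late rises were 2.05 ± 0.14 for 1810009J06Rikl, 1.63 ± 0.23 for Prss3b, 1.18 ± 0.14 for Prss1 and 1.04 ± 0.12 for Prss3 (SE, n = 5), in 5 of 5 pairs each. Their limma adjusted p were 3.74e-11, 3.42e-05, 2.85e-06 and 1.57e-06, and they ranked 2, 4, 11 and 14 among all probes. Prss2 differed by 0.06 ± 0.08. Without batch 2 Prss1 (1.07) and Prss3b (1.51) did not pass, with limma adjusted p of 0.0548 and 0.148. Between the middle and the late window 0 of 5 members passed, while 1.56% of all probes did. For 1810009J06Rikl the effect was smaller late by -0.55 ± 0.17 with a limma adjusted p of 0.113. In batches 2 and 3 alone, which hold the whole course, it was smaller by -0.89 with an adjusted p of 7.5e-08, and it also passed with array weights, without batch 1 and without batch 4. The single pair at 12 h, of batch 2, had differences of 2.34, 1.93, 1.85 and 1.73 for the 4 genes in the order above, and it gave no test.

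Untreated cells drifted during the experiment. In batches 2 and 3, 3 of 5 members were higher at 8, 10 and 14 h than at 0, 0.25 and 0.5 h, and 12.4% of all probes passed, 5.78% as higher. Prss3 stood at 11.92, 11.53 and 11.99 at the early times and at 12.79, 12.64 and 12.86 at the late ones in batch 2, and at 12.43, 12.35 and 12.10 and then 12.94, 12.80 and 13.27 in batch 3. The late samples lay above the early ones of the same batch in both. The rise was 0.83 ± 0.08 (SE, 12 samples), or 1.78-fold (limma adjusted p = 1.14e-06), and it ranked 14. The 12 samples were serial times of batches 2 and 3, which the fit treats as independent.

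Prss1 rose in the same way, by 0.70 ± 0.08 and a fold of 1.62, and 1810009J06Rikl by 0.68 ± 0.07 and a fold of 1.61, with limma adjusted p of 1.35e-05 and 3.91e-06. In untreated cells 1810009J06Rikl began at 10.89, 10.61 and 10.99 in batch 2 and reached 11.33, 11.54 and 12.03. In batch 3 it began at 10.97, 10.96 and 10.60 and reached 10.96, 11.48 and 11.79. Prss3b did not pass for this drift, at 0.08 ± 0.06 (limma adjusted p of 0.442), nor did Prss2, at 0.01 ± 0.05. Both probes were low in untreated cells, which limits which drift could be detected. By 4 and 6 h 2 members were higher than at 0 to 0.5 h, Prss3 by 0.46 ± 0.09 and 1810009J06Rikl by 0.37 ± 0.08, where 4.03% of all probes passed, 1.85% as higher. Prss1 differed by 0.30 ± 0.09 with a limma adjusted p of 0.0774, and it passed with array weights (0.0387). Neither of the 2 calls held without batch 2 (0.31 and 0.30), and that of 1810009J06Rikl did not hold without batch 3 either (0.43). In batches 4 and 5, which were measured from 1 h on, 0 of 5 members differed between 4 and 6 h and 1 and 2 h, against 0.724% of all probes. In these batches the 4 h arrays came from 1 title series and the 2 and 6 h arrays from the other. Time and series therefore cannot be told apart at 4 h, which limits this comparison.

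Cycloheximide alone lowered 2 members. At 1 and 2 h 0 of 5 passed, although 13.4% of all probes did, and Prss1 had differences of -0.6402 to -0.154 in its 4 pairs (fitted -0.38 ± 0.17). Without batch 6, which has no sample at these times and enters only the error, Prss1 passed (limma adjusted p of 0.0333). At 4 and 6 h 2 of 5 passed as lower and 0 as higher, in a comparison where 25.5% of all probes passed and 13.3% as lower. At 4 h Prss1 stood at 9.18, 8.97 and 11.52 in batches 4, 5 and 6 with cycloheximide, against 9.91, 9.71 and 12.455 without. At 6 h it stood at 9.49 and 9.21 in batches 4 and 5, against 10.47 and 10.255. Prss3 stood at 10.80, 10.465 and 12.89 and then 10.08 and 10.14, against 11.34, 11.33 and 13.65 and then 11.46 and 11.41. In each of the 5 pairs both genes were lower with the inhibitor. The fitted change was -0.91 ± 0.15 (SE, n = 5), a fold of 0.533, for Prss1 and -1.025 ± 0.112, a fold of 0.4915, for Prss3, with limma adjusted p of 8.52e-05 and 3.04e-07. Prss3b differed by 0.33 ± 0.31 and 1810009J06Rikl by 0.33 ± 0.17, and neither passed (limma adjusted p of 0.526 and 0.167). The low untreated level of Prss3b limits which fall could be detected. Without batch 5 Prss1 did not pass (-0.91, adjusted p of 0.0664), and without batch 6 1810009J06Rikl passed as higher (0.43, adjusted p of 0.0348).

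With cycloheximide present, gastrin still raised 1810009J06Rikl. At 1 and 2 h it was the 1 member that passed, where 0.0799% of all probes did and 0.071% as higher, with a change of 0.95 ± 0.18 (SE, n = 4) and a limma adjusted p of 0.0462. It was higher in 4 of 4 pairs, by 0.56 to 1.58, but the call was lost in 9 of 12 alternative fits. At 4 and 6 h it was again the 1 member that passed, and 3.48% of all probes passed, 2.17% as higher. Its levels were 11.86, 12.64 and 13.61 at 4 h and 14.475 and 12.81 at 6 h with gastrin and cycloheximide. With cycloheximide alone they were 11.63, 11.50 and 11.61 and then 12.61 and 11.59. The 5 pairs were all higher, by 0.23 to 2.00, and the change was 1.33 ± 0.17 (SE, n = 5), or 2.52-fold (limma adjusted p = 1.73e-05). It did not pass without batch 5 (1.49, adjusted p of 0.115).

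Prss3b under cycloheximide was higher with gastrin in 5 of 5 pairs at 4 and 6 h, by 0.18 to 1.60, and did not pass (0.70 ± 0.31, limma adjusted p of 0.279). Without batch 6, whose levels were 7.91 and 9.51, the difference was 0.48 with an adjusted p of 0.0682. Prss1 differed by 0.15 ± 0.15 and Prss3 by 0.19 ± 0.11, each higher in 3 of 5 pairs. In the same batches and times without cycloheximide, 4 of 5 members rose with gastrin, in a comparison where 3.19% of all probes passed and 1.74% as higher. The rises were 2.23 ± 0.17 for 1810009J06Rikl, 1.425 ± 0.308 for Prss3b, 0.95 ± 0.15 for Prss1 and 0.715 ± 0.112 for Prss3. Without batch 5 none of the 4 passed limma's threshold, and without batch 4 only 1810009J06Rikl did. Without batch 6 the Prss3b rise was 0.93.

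Whether cycloheximide changed the gastrin effect was tested as the difference of these 2 effects, and 0 of 5 members passed, as did 0.369% of all probes at 4 and 6 h and 0.302% at 1 and 2 h. At 1 and 2 h the difference was -0.56 ± 0.17 for Prss3, -0.54 ± 0.24 for Prss1 and -0.54 ± 0.26 for 1810009J06Rikl. For Prss3b it was -0.14 ± 0.48 and for Prss2 -0.02 ± 0.14. At 4 and 6 h the effect was smaller with cycloheximide by -0.90 ± 0.235 for 1810009J06Rikl, -0.80 ± 0.22 for Prss1, -0.72 ± 0.435 for Prss3b and -0.53 ± 0.16 for Prss3. The unadjusted limma p were 0.000961, 0.00138, 0.111 and 0.00303, and the adjusted ones 0.11, 0.126, 0.584 and 0.179. Without batch 6 the difference for 1810009J06Rikl was -1.03 and passed, with a limma adjusted p of 0.0276. Set directly against gastrin alone, gastrin with cycloheximide left 3 of 5 members lower, where 24.5% of all probes passed and 12.7% as lower. They were Prss1 by -1.71 ± 0.15, Prss3 by -1.55 ± 0.11 and 1810009J06Rikl by -0.57 ± 0.17, with limma adjusted p of 2.28e-08, 9.87e-10 and 0.0134. The last did not pass without batch 5 (-0.47, adjusted p of 0.441) or with batch as an additive term (adjusted p of 0.233). All cycloheximide comparisons share the samples of batches 4 to 6.

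**Figure D3:**
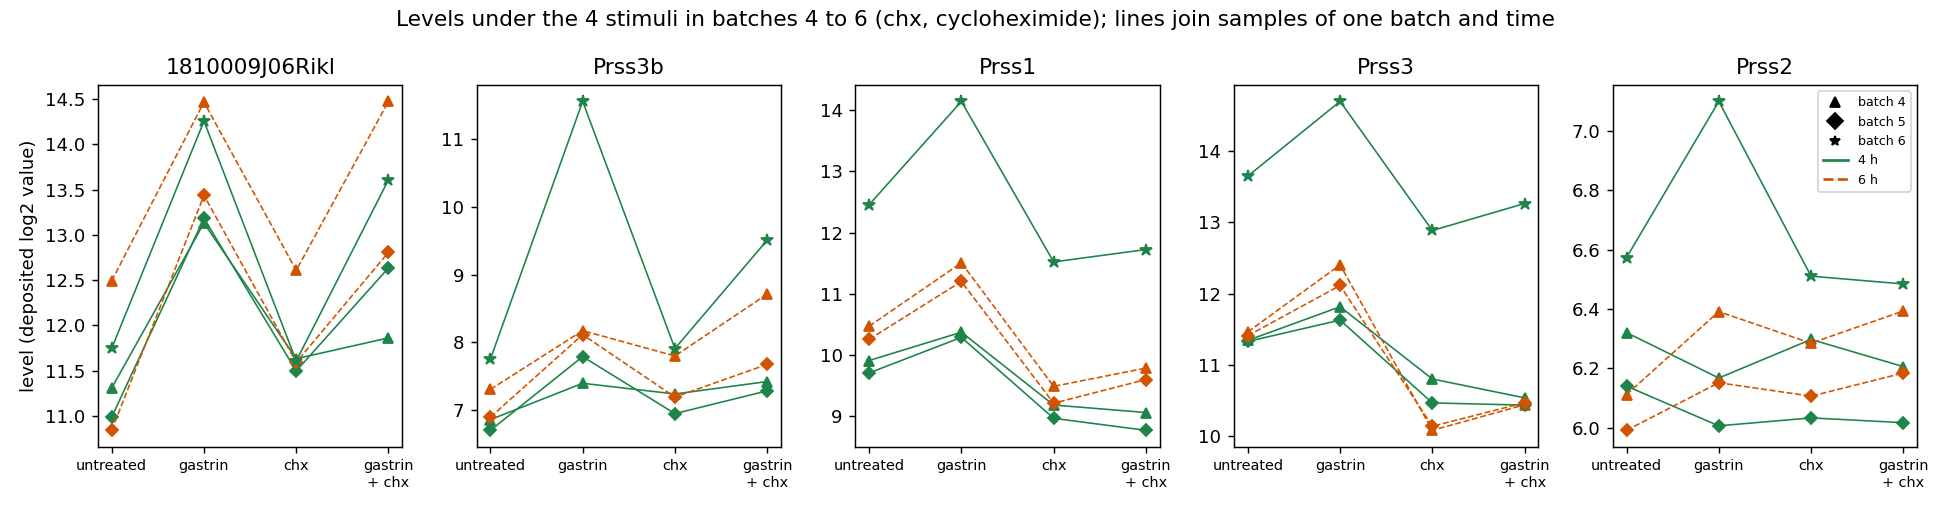
Deposited log2 levels of the 5 probes (vertical axis) without stimulus, with gastrin, with cycloheximide (chx) and with both, in batches 4, 5 and 6 at 4 h (green) and 6 h (orange, dashed), with lines joining the samples of a batch and time. Prss1 and Prss3 are lowest in the 2 groups with cycloheximide in each batch, and 1810009J06Rikl is higher with gastrin and cycloheximide than with cycloheximide in all 5 pairs.

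The gastrin effect on 1810009J06Rikl at 4 and 6 h was smaller in batches 4 to 6 than in batches 2 and 3, by -0.61 ± 0.13 with a limma adjusted p of 0.0115. It was the 1 member of 5 that passed, where 3.54% of all probes did and 1.76% as lower. It did not pass without batch 2 (-0.59) or without batch 3 (-0.64). Prss1, Prss3, Prss3b and Prss2 differed by 0.01 ± 0.18, -0.16 ± 0.13, 0.15 ± 0.41 and 0.09 ± 0.115 between the same batches.

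**Figure D4:**
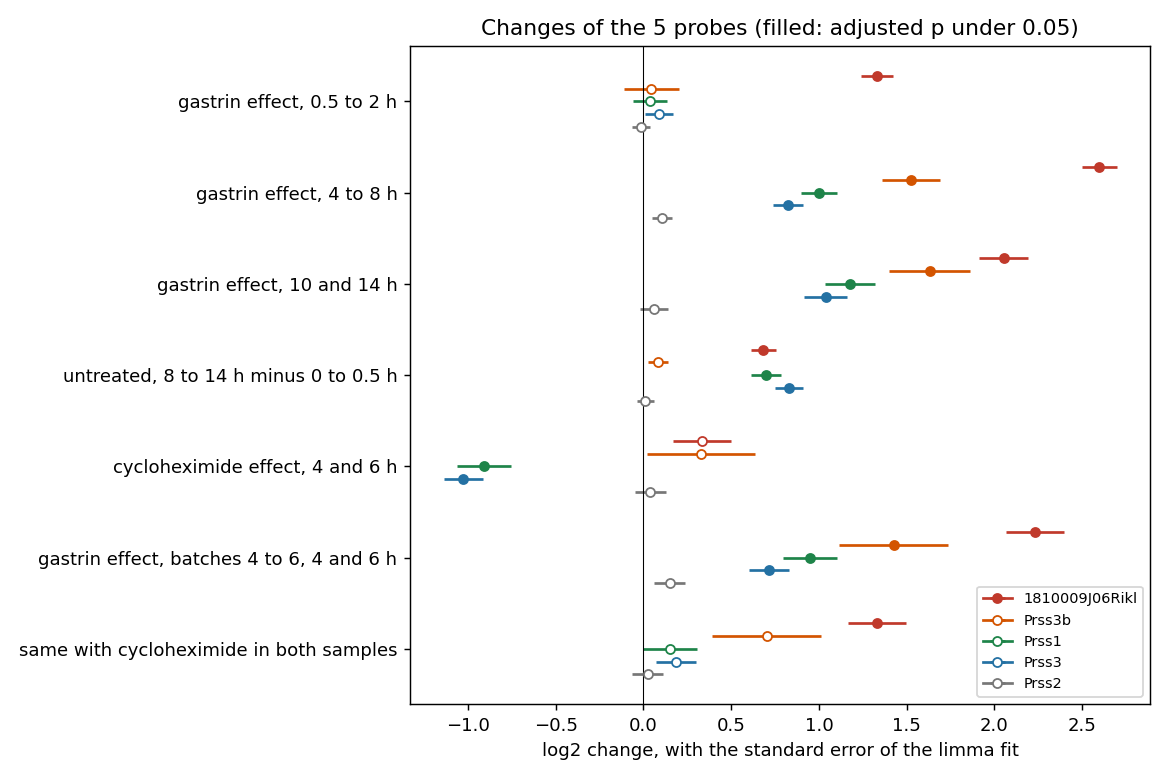
Fitted log2 changes of the 5 probes (horizontal axis) with the standard error of limma, in 7 comparisons, with filled circles for adjusted p under 0.05. The early gastrin effect is filled for 1810009J06Rikl alone, the effects at 4 to 8 h and at 10 and 14 h for 4 probes, and cycloheximide lowers Prss1 and Prss3.

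The members did not follow 1 common course. Over the 31 pairs of gastrin and untreated samples the differences of Prss1 and Prss3 had a Pearson correlation of 0.963, those of Prss1 and Prss3b one of 0.884, and those of 1810009J06Rikl with Prss1, Prss3b and Prss3 were at 0.706, 0.688 and 0.665. Prss2 had correlations of 0.192 to 0.388 with the others. Outside the family the genes most alike to 1810009J06Rikl by this measure were Asns, asparagine synthetase, at 0.907, the mitochondrial folate enzyme Mthfd1l at 0.878 and Arhgap18 at 0.853. For Prss1 they were Ddah1, Cbs and Fbp2 (0.85, 0.842 and 0.839), for Prss3 Pros1, Atp5mc1 and Tubb6 (0.839, 0.827 and 0.818) and for Prss3b Maged2, Glrx and Tcea3 (0.842, 0.837 and 0.826). The highest for Prss2, Mycn, Reg3b and Rasd1, lay at 0.57 to 0.573 and fell to 0.348 to 0.502 without batch 6. The pairs share batches, times and arrays, so these values describe likeness in time course and no test was made.

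The neighbouring family genes Prss3bl1 and Try10 are no members and were looked at after the values were seen. Prss3bl1 rose with gastrin at 4 to 8 h by 0.58 ± 0.15 (SE, n = 11; limma adjusted p of 0.00978). Its batch 6 difference was 2.88, with levels of 9.42 and 6.54, and its pairs at 4 and 6 h in batches 4 and 5 were between 0.07 and 0.67. It did not pass at 10 and 14 h (0.15 ± 0.21, adjusted p of 0.754), nor for the growth from the early window (0.53 ± 0.21, 0.163). Under cycloheximide at 4 and 6 h it rose with gastrin by 1.19 ± 0.27 (SE, n = 5; limma adjusted p of 0.00997), while gastrin alone in the same batches and times did not pass (0.87 ± 0.27, 0.0822). Try10 passed in no gastrin window.

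Proteins that activate, degrade or inhibit trypsinogen gave mixed results. Of 12 listed genes 10 were measured. At 0.5 to 2 h 0 rose and 3 fell, beside 9.21% of all probes that passed, with a median of -0.126 against -0.00428 for all probes. These were Vamp8, a fusion protein of zymogen granules, by -0.32 ± 0.07, Ctsb, which encodes the trypsinogen activator cathepsin B, by -0.27 ± 0.05 and the protease inhibitor gene Serpina1 by -0.19 ± 0.05. At 4 to 8 h 1 rose and 1 fell, beside 10.3% of all probes, with a median of -0.00308 against -0.00367. Ctrc, a chymotrypsin that in humans degrades trypsinogen, rose by 1.395 ± 0.115 and Serpina1 fell by -0.22 ± 0.06. At 10 and 14 h 2 rose and 1 fell, beside 7.52% of all probes, and Ctrc rose by 2.41 ± 0.16 and Ctsd, cathepsin D, by 0.31 ± 0.095, while Serpina1 fell by -0.32 ± 0.08. The inhibitor Spink1 and the activator Tmprss15, enteropeptidase, picked with their values already known, had differences of -0.01 ± 0.06 and 0.00 ± 0.05 at 4 to 8 h. Cycloheximide at 4 and 6 h lowered 5 of the 10 and raised 1, beside 25.5% of all probes that passed and 13.3% as lower, and the falls were led by Serpina1 at -0.51 ± 0.06, Ctrc at -0.485 ± 0.119, Ctsb at -0.42 ± 0.06 and Ctsd at -0.42 ± 0.12.

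Among 20 measured genes of other digestive enzymes and granule proteins 6 rose and 2 fell at 4 to 8 h, beside 10.3% of all probes that passed and 4.98% as higher, with a median of 0.07 against -0.00367 for all probes. The list shares Ctrc with the previous one. After Ctrc came Cela3b, an elastase, with 1.11 ± 0.06, pancreatic lipase, Pnlip, with 0.7155 ± 0.0727, and the colipase Clps with -0.35 ± 0.06. At 10 and 14 h 4 rose and 2 fell, beside 7.52% of all probes, led by Ctrc and by Cela3b with 1.41 ± 0.08. In untreated cells 5 rose and 1 fell between 0 to 0.5 h and 8 to 14 h, beside 12.4% of all probes, with Ctrc at 1.44 ± 0.21, the amylase Amy2a3 at 0.66 ± 0.14 and Cela3b at 0.48 ± 0.06. Cycloheximide at 4 and 6 h lowered 4, among them Cela3b at -0.7005 ± 0.0832, and raised 4, among them the lipase Pnliprp2 at 0.60 ± 0.10, in the comparison where 25.5% of all probes passed. All changes named from these lists passed limma's adjusted threshold.

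Of 43 listed genes of other trypsin-fold proteases 32 were measured. At 4 to 8 h 1 rose and 1 fell, beside 10.3% of all probes, with a median of 0.00187 against -0.00367 for all probes. The tissue plasminogen activator Plat rose by 0.55 ± 0.10 and plasminogen, Plg, fell by -0.16 ± 0.05. Under cycloheximide gastrin raised Plat by 1.56 ± 0.17 at 4 and 6 h, where 3.48% of all probes passed. Of the receptors that trypsin or related proteases cleave, 3 of 4 were measured and 0 passed in the 3 gastrin windows from 0.5 h on. The thrombin receptor gene F2r was higher with gastrin under cycloheximide at 4 and 6 h (0.33 ± 0.07, limma adjusted p of 0.0113). All 3 receptor probes were dim, which limits these results. Their mean levels were 6.004 for F2r, 6.129 for F2rl1 and 5.997 for F2rl2, where the lowest array median was 6.40.

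Of 8 measured acinar transcription factors 4 rose and 0 fell at 0.5 to 2 h, beside 9.21% of all probes that passed and 4.68% as higher, with a median of 0.197 against -0.00428 for all probes. They were Ptf1a, the bHLH subunit of PTF1, by 0.66 ± 0.05, Nr5a2 by 0.55 ± 0.10, Foxa2 by 0.37 ± 0.07 and Xbp1 by 0.21 ± 0.05. At 4 to 8 h, beside 10.3% of all probes, Ptf1a was the 1 gene of the list that was higher (0.24 ± 0.05), and 2 were lower, Rbpjl by -0.24 ± 0.07 and Gata4 by -0.22 ± 0.07 (limma adjusted p of 0.0205 and 0.0421). At 10 and 14 h 0 of the 8 passed. Cycloheximide alone at 4 and 6 h raised 6 of the 8 and lowered 0, beside 25.5% of all probes that passed, with Ptf1a at 1.43 ± 0.09, Foxa2 at 0.99 ± 0.10 and Rbpjl, the acinar RBPJ-type subunit of PTF1, at 0.55 ± 0.095. In the same samples Prss1 and Prss3 were lower.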

How the data were processed

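Expression was measured on 1-colour Illumina bead arrays. The deposited table holds log2 values for 22523 probes on 90 arrays, and lumi 2.4.0 is named in the submitters' processing notes. Its transformation and normalization settings are not given in the sources used here, and scanner intensities and detection calls were not used, so folds are 2 to the power of a difference on this scale. The number of arrays limits the precision.

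Technical replicate arrays of batch 6 and the 1 h arrays of both title series were averaged; cycloheximide fits used the 1 h series with all 4 stimuli. For 2 arrays the title named one stimulus and the label another, so no comparison used them. limma 3.58.1 (R 4.3.3; lmFit and eBayes) was fitted to all probes with each batch and time as a block. The p-values were adjusted by Benjamini-Hochberg across the 22523 probes, and 0.05 was the threshold. The labels name the batch, and deviations of control and gastrin samples of 1 batch and time correlated at 0.199 to 0.923. The fits were tested on simulated data with independent noise for each array. These had no batch levels or correlated pairs, so the handling of batches was not tested.

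The genes and lists were chosen with earlier results of these data known. Every member probe was tested in each comparison, and values of members that did not pass are not all printed. Of each list, up to 4 genes of largest change past the threshold are named, in at most 4 comparisons. For each member the 3 genes of highest correlation are given. Probe genes come from the platform's annotation, gene order and promoters from RefSeq (GRCr8). Alternatives were no replicate block, an additive batch term, array weights, trend and robust variance, an array score, other centring, a filter on dim probes, subsets of batches and each batch left out.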

Additional observations from a re-analysis of the deposited data

Results flagged for a closer look

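At 4 h batch 6 stood far from the other 4 batches for 2 genes. Its Prss3b level was 7.75 without stimulus, where the next sample was at 6.86, and 11.56 with gastrin, where the next was at 7.99. Its gastrin difference for Prss3b was 3.80, against 1.23 for the next batch. Its Prss2 level with gastrin was 7.10, against 6.24 for the next. For 1810009J06Rikl the untreated batch 4 sample at 2 h, at 12.06, stood above the next at 11.06, and the batch 2 gastrin sample at 1 h, at 12.31, stood apart from 3 samples at up to 12.07. Chance marks about 1 in 20 such groups, and 60 groups were examined.

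The gastrin effect differed between sets of batches by limma's test of the difference. For 1810009J06Rikl it was -0.61 at 4 and 6 h, batches 4 to 6 minus batches 2 and 3. At 1 and 2 h, batches 4 and 5 minus batches 2 and 3, it was 0.68 for Prss1, 0.59 for Prss3 and 0.29 for Prss3b. It also differed between times, and the effect at 4 to 8 h exceeded that at 0.5 to 2 h by 0.96 for Prss1, 0.74 for Prss3, 1.48 for Prss3b and 1.27 for 1810009J06Rikl.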

How the results depend on the processing

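Over all alternatives 1086 member results kept their side of the threshold, 57 no longer passed and 8 newly passed. The sign changed in 43 of the 1086, and 0 of these 43 passed as reported or in the alternative. Among them are Prss1, Prss3 and Prss3b with gastrin at 0.5 to 2 h, at -0.13, -0.06 and -0.03 in batches 2 and 3 alone. Of the losses 21 came without the replicate block, where batch levels enter the error. Without the replicate block the number of members called was 2 for gastrin at 4 to 8 h, 2 at 10 and 14 h, 1 for the growth between the early and middle windows and 1 for gastrin in batches 4 to 6. It was 0 for cycloheximide at 4 and 6 h, 0 for gastrin under cycloheximide in both windows, 0 for gastrin with cycloheximide against gastrin, 1 for untreated cells at 4 and 6 h, 0 for batches 4 to 6 against 2 and 3, and 1 for the early comparison of batches. Gastrin under cycloheximide at 1 and 2 h also gave 0 calls with additive batch, trend and robust variance, array weights, the array score as covariate, both 1 h series averaged, and without samples of high score. The late against the middle window gave 1 call with array weights and 1 in batches 2 and 3 alone.

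With each batch left out in turn the number of members called ran from 2 to 4 at 10 and 14 h, from 1 to 4 for the growth between windows, from 0 to 1 for late against middle, from 0 to 1 for cycloheximide at 1 and 2 h and from 1 to 3 at 4 and 6 h. It ran from 0 to 1 for gastrin under cycloheximide in either window and for the difference made by cycloheximide at 4 and 6 h, from 0 to 4 for gastrin in batches 4 to 6, from 0 to 1 for untreated cells at 4 and 6 h (2 with both batches), from 0 to 1 for batches 4 to 6 against 2 and 3, and from 1 to 3 for the early comparison of batches. Leaving out a batch also leaves fewer samples. Beyond that, the cause was not tested. Counts over all probes moved too, from 136 without the block to 5981 in batches 2 and 3 alone for gastrin at 0.5 to 2 h (2075 as reported), and from 214 to 3715 at 4 to 8 h (2323). At 10 and 14 h they ran from 30 to 3612 (1694). Without the block 34 probes passed for the growth between windows (1273 as reported) and 11 for batches 4 to 6 against 2 and 3 (798). Without batch 5, 71 passed for gastrin in batches 4 to 6 (719) and 148 for gastrin under cycloheximide at 4 and 6 h (783). Without batch 2, 1 passed for untreated cells at 4 and 6 h (908). For cycloheximide at 4 and 6 h the lowest count was 3011 (5749). Losses were thus not confined to the members. Signal over background was not available, which limits statements on Prss2.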

Other observations

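Of the 12 h arrays of batch 3, 2 had contradictory labels. The array called untreated in its title and gastrin in its stimulus label had levels of 11.385 for Prss1, 12.31 for Prss3, 6.41 for Prss3b, 11.33 for 1810009J06Rikl and 5.97 for Prss2. The array called gastrin in its title and untreated in its stimulus label had 12.70 for Prss1, 13.52 for Prss3, 7.97 for Prss3b, 13.76 for 1810009J06Rikl and 6.11 for Prss2.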
